A study of Homo sapiens with 32 samples.

Results

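Kinetochore and mitotic control genes were described by the transcription factor summits at their starts. The genes were a named list of 40, chosen by function from kinetochore subunits, spindle checkpoint proteins and mitotic kinases, out of 19970 protein-coding genes on chromosomes 1 to 22 and X. All 40 matched a gene record of the GENCODE 44 annotation. The measurements were ChIP-seq, in which chromatin fragments recovered with an antibody are sequenced, from HEK293T cells, a standard line derived from human embryonic kidney. All samples came from a single clone, HEK_CloneZD29, whose ZNF143 protein carries an inducible degron tag, so that the untreated cells carry the tag too. The study had 32 samples in 10 groups. Chromatin from untreated cultures and from cultures after 30 minutes of 50 nM dTAGV-1, a compound that directs the tagged protein to degradation, was precipitated for SP1, NRF1 and YY1 (4 samples a group) and for ZNF143 through its HA tag or in a mock precipitation (2 samples a group).

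The kinetochore is the protein assembly that joins a chromosome's centromere to spindle microtubules. Its inner layer sits on nucleosomes with the histone variant CENPA, its outer layer holds the microtubule-binding NDC80 complex, and checkpoint proteins on it delay anaphase until every chromosome is attached. Many of these genes are transcribed mainly in the G2 and M phases of the cell cycle. This timing is known to depend on a promoter element called the cell cycle genes homology region (CHR), bound by the DREAM and MuvB complexes, and on CCAAT boxes bound by NF-Y. ZNF143, SP1, NRF1 and YY1 are broadly expressed DNA-binding factors of promoters, and ZNF143 sites often pair a core with the bases ACTACAA directly upstream.

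Each antibody had a deposited list, 4 in all, of the positions where signal within called peaks was highest. Column 5 of a list gives a score per summit on a −log10 scale, of a p-value or else a q-value. On chromosomes 1 to 22 and X the lists held 16165 (ZNF143), 126181 (SP1), 39180 (NRF1) and 106578 (YY1) summits. Scores rise with sequencing depth, which the lists do not give, and were ranked only within a list. The labels assign the SP1 and ZNF143 lists to untreated and treated samples alike and no list has a value per sample, so that no replicate error or treatment effect could be measured. The shares that follow describe these lists, and no test was made of them. A factor was counted at a gene when its list held a summit no more than 500 bp from the start of the gene record. Peak numbers were skipped in the SP1 (1315), NRF1 (1380) and YY1 (11467) lists, and none in the ZNF143 list. No number was skipped between the nearest summits on either side of the gene record's 5′ end, for any of the 40 genes. Other parts of the 500 bp windows and canonical starts were not checked for this.

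The sequences under the strongest ZNF143 summits are shown first, since the 2 highest-ranked checkpoint genes carried copies of the factor's consensus. Each is the hg38 reference in the direction of the gene. Capitals mark the ZNF143 consensus, its short core CCCANNATG or the bases ACTACAA, on either strand. The last 2 motifs were added after these sequences had been seen. The longer runs reach 50 bp to each side of the summit, and runs of 30 bases, used where annotated untranslated sequence overlaps, are centred on the nearest match or, without a match, on the summit.
BUB3 (chr10:123154091-123154191, plus strand): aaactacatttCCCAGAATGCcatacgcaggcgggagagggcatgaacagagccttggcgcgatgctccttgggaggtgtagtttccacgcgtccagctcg
BIRC5 (chr17:78214196-78214225, plus strand): cccagaaggccgcggggggtggaccgccta
BUB1B (chr15:40160909-40161009, plus strand): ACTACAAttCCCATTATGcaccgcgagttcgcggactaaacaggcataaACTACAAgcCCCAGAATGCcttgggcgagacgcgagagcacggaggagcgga
CENPL (chr1:173824435-173824464, minus strand): gcttcactgatacggaatcggcgaggcgcc
CENPO (chr2:24793364-24793393, plus strand): actccccggtgCATCTTGGGatcagggcgg
INCENP (chr11:62123711-62123811, plus strand): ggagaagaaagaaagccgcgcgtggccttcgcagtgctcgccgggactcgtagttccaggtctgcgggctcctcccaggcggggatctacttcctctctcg

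In BUB1B, the gene of the checkpoint kinase-like protein BubR1, both copies of ACTACAA lay 2 bases before a CCCANNATG core, and the copy nearer the gene also matched the full consensus. Its middle was 12.5 bp from the ZNF143 summit and 6.5 bp from the YY1 summit. In BUB3, which encodes BubR1's partner in the mitotic checkpoint complex, the consensus lay 34.5 bp from the ZNF143 summit and 9.5 bp from the YY1 summit. The CENPO run held the core on the opposite strand, 26 bp from its summit. At BIRC5 the nearest match was ACTACAA with its middle 53 bp from the summit, just beyond the 50 bp used for matching at summits. The run around it shows that the core did not follow.
BIRC5, upstream (chr17:78214143-78214172, plus strand): cgcggcgggaggACTACAActcccggcaca

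Most of the 40 genes had summits of several factors. NRF1 was at 36 (90.0%, against 48.3% of all protein-coding genes), YY1 at 35 (87.5%, against 57.8%), SP1 at 34 (85.0%, against 59.1%) and ZNF143 at 23 (57.5%, against 31.7%). All 4 lists had a summit at 22 genes (55%, against 28.1%). SP1, NRF1 and YY1 without ZNF143 were at 10 genes (25%, against 17.4%), and 2 genes had no summit (5.00%, against 37.3%). These counts depend on how much of each list is used. In the upper 50% of each list ZNF143 was at 12 genes (19.3% of all), all 4 lists at 10 (16.2%) and the other 3 without ZNF143 at 17 (23.3%). With every list held to 16165 summits, the last count was 2 (4.15%). ZNF143 was present at 22 of the 32 genes with SP1, NRF1 and YY1 (68.8%), beside 61.8% of the 9091 genes of the genome with those 3. Among promoters with the other factors, the ZNF143 share was therefore close to that of genes in general.

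**Figure D1:**
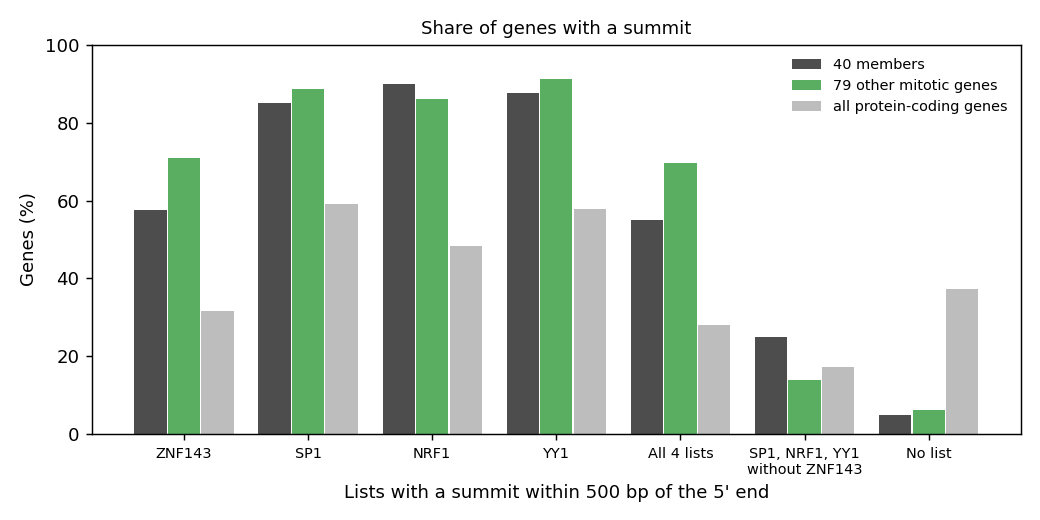
Share of genes (percent, vertical axis) with a summit of each list, of all 4 lists, of SP1, NRF1 and YY1 without ZNF143, and of no list, for the 40 genes, 79 other mitotic genes and all 19970 protein-coding genes. The 40 genes lie above all genes for each factor, with 57.5% against 31.7% for ZNF143, and below them for no list.

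The 17 genes without ZNF143 were CENPA, CENPC, CENPN, CENPP, CENPQ, CENPT, CENPW, NUF2, SPC25, DSN1, BUB1, MAD2L1, TTK, AURKB, PLK1, CCNB1 and CCNB2. Of these, CENPA, CENPC, CENPQ, CENPW, DSN1, BUB1, MAD2L1, AURKB, CCNB1 and CCNB2 had the other 3 factors. MIS12 lacked only NRF1. CENPN had NRF1 (score 7028) and YY1 (79.1), and CENPP had SP1 (535) and NRF1 (144). CENPT (4.44) and TTK (8.54) had NRF1 alone, and PLK1 had YY1 alone (4.96). NUF2 and SPC25, whose products are neighbours in the NDC80 complex, had none. Closest to the 500 bp limit were a ZNF143 summit 433 bp from CENPL on the inside and 534 bp from CENPP on the outside. For the other lists the nearest summits outside were at 509 bp (YY1, CENPP), 520 bp (SP1, CENPN) and 598 bp (NRF1, MIS12).

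**Figure D2:**
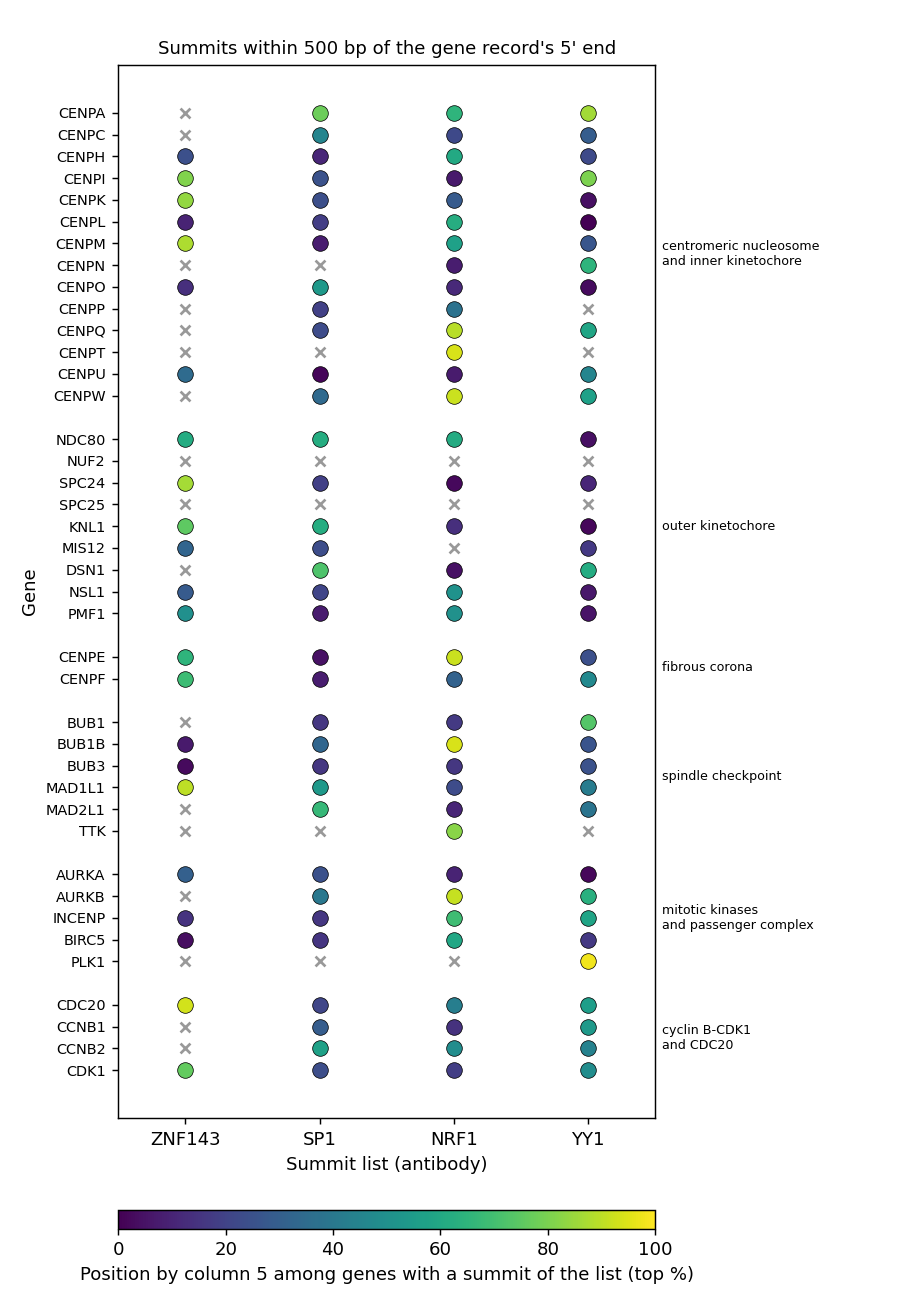
Each row is a gene, grouped by role, and each column a summit list; a circle marks a summit inside the 500 bp limit and a cross none. Colour gives the place of the gene's highest score among all genes with a summit of that list (dark, top; yellow, bottom), with BUB3 and BIRC5 dark for ZNF143 and CENPL and AURKA dark for YY1.

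Several genes without a summit had one at another annotated start. The gene record starts at the most upstream annotated transcript, and in 6 of the 40 genes the Ensembl canonical transcript starts over 500 bp further in. The distance was 55378 bp in NUF2, 22941 bp in SPC25, 21767 bp in CENPA, 1233 bp in PLK1, 762 bp in TTK and 662 bp in CENPN. Counted from the canonical 5′ ends of all genes, SP1 was at 39 of the 40 (64.5% of all genes), NRF1 and YY1 at 38 each (52.8% and 63.1%), ZNF143 at 27 (34.8%) and all 4 factors at 26 (31.6%). With these starts each of the 40 genes had a summit of at least 1 list, and CENPT alone lacked SP1.

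At the canonical start of PLK1, the kinase of mitotic entry and spindle assembly (chromosome 16, 23678889), all 4 lists had a summit between 123 and 100 bp upstream. The ZNF143 score there was 3003, in the top 7.91% of the list, beside 209 for SP1, 310.2 for NRF1 and 133 for YY1. At SPC25 (chromosome 2, 168890430) the ZNF143 summit scored 1671 at −95 bp with SP1 (146) and YY1 (161) beside it and no NRF1. NUF2 (chromosome 1, 163321954) had ZNF143 at −38 bp with a score of 27.2 and an SP1 summit of 1034 at −46 bp. In TTK, the kinase that starts checkpoint signalling, SP1 (375), NRF1 (25.6) and YY1 (337) summits lay within 100 bp of the canonical start at −77, −76 and 96 bp, with no ZNF143. CENPA, the centromeric histone, had an SP1 summit of 1144 at −156 bp, against 59.6 for the SP1 summit at its gene record's start. NRF1 had no summit by the canonical start of CENPA. The NRF1 summit at CENPA's gene record start lay in untranslated sequence of another gene, SLC35F6. CENPN had a ZNF143 summit of only 4.97 and an SP1 summit of 1675. The run at SPC25 is shown because it held an exact consensus, 142 bp before its canonical start, and the PLK1 run because it held none.
SPC25 (chr2:168890552-168890581, minus strand): actacgaatCCCAGAATGCcctgttccccc
PLK1 (chr16:23678729-23678829, plus strand): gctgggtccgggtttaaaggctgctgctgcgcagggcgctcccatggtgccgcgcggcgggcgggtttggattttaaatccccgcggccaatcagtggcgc

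Within the 14 genes of the centromeric nucleosome and inner kinetochore, by gene record starts, NRF1 was at all 14, SP1 and YY1 at 12 each and ZNF143 at 7. By canonical start CENPA had no NRF1 summit. The ZNF143 scores split widely. CENPL (6209.9, 433 bp downstream) and CENPO (4484, 269 bp downstream) stood in the top 4.38% and 6.01% of the list. CENPH followed with 861 at 12 bp and CENPU with 84.0 at −15 bp. CENPI (6.08), CENPK (5.55) and CENPM (4.56) lay in the lower part of the list. These products belong to the constitutive network that links CENPA nucleosomes to the outer layer. Grouped by its known subcomplexes, a grouping made after the values were seen, ZNF143 was at 4 of 4 genes of the CENPH, CENPI, CENPK and CENPM subcomplex. The share over all protein-coding genes was 31.7%, and the scores at CENPI, CENPK and CENPM were low. ZNF143 was at CENPL and not its partner CENPN, which had a summit of 4.97 by its canonical start. It was at CENPO and CENPU and not CENPP or CENPQ, and at neither CENPT nor CENPW. This grouping took only genes of the named list, so that the absence at CENPT and CENPW does not describe a whole subcomplex. CENPS, CENPX and ITGB3BP were counted among the other mitotic genes. There ZNF143 was at CENPS (896, the top 12.2% of the ZNF143 list) and ITGB3BP (4.43), and not at CENPX.

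The strongest SP1 and YY1 summits of the 40 genes were also in this group. CENPU had the highest SP1 score, 2742 at −134 bp (rank 435, the top 0.345% of the list), and CENPL the highest YY1 score, 15923 at 371 bp (rank 25, the top 0.0235%). At CENPL the ZNF143 and YY1 summits lay in its annotated untranslated region, 62 bp apart. High NRF1 scores were at CENPI (7787), CENPU (7524), CENPN (7028) and CENPO (5338), while CENPQ (5.98), CENPW (5.13) and CENPT (4.44) had low NRF1 scores, in a list whose lowest score was 2.00. A count of genes with an NRF1 summit thus joins sites from both ends of the score range.

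Of the 9 outer kinetochore genes, 7 had SP1, 7 YY1, 6 NRF1 and 6 ZNF143, and the 2 with none were NUF2 and SPC25. By gene record starts ZNF143 scores were moderate or low: 300.3 at NSL1, 123 at MIS12, 23.7 at PMF1, 12.96 at NDC80, 7.64 at KNL1 and 4.97 at SPC24. By canonical start SPC25 had a ZNF143 score of 1671 and NUF2 one of 27.2. YY1 scores covered a wide range. KNL1, the scaffold that binds BUB proteins, had a YY1 score of 6038, and NDC80 3335, PMF1 2639.9, NSL1 2159, SPC24 1378, MIS12 741 and DSN1 91.6. NRF1 had its highest score of the 40 genes at SPC24, 12284 at −208 bp (rank 222, the top 0.567%), and the next at DSN1, 9548 at −34 bp. The corona proteins CENPE, a kinesin, and CENPF each had all 4 factors, with SP1 scores of 1433 and 1038 and ZNF143 scores of 11.0 and 9.83.

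The 6 spindle checkpoint genes all had NRF1, 5 had SP1, 5 YY1 and 3 ZNF143. BUB3 had the highest ZNF143 score of the 40 genes, 15679 at chromosome 10, position 123154141, in intergenic sequence 261 bp upstream of its 5′ end (rank 176, the top 1.09% of the list). BUB1B scored 8653 at chromosome 15, position 40160959, also intergenic, 64 bp upstream (the top 3.07%). MAD1L1, which recruits MAD2L1 to kinetochores, scored 4.35. BUB1, MAD2L1 and TTK had no ZNF143 summit by either start. The NRF1 order was not the ZNF143 order, with 5807 at MAD2L1, 3554 at BUB3, 3020 at BUB1 and 1420 at MAD1L1, against 8.54 at TTK and 4.44 at BUB1B. The 2 genes of the checkpoint complex that share the ZNF143 consensus thus differed in NRF1.

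Among the mitotic kinases and the passenger complex (AURKB with INCENP and BIRC5), YY1 was at 5 of 5 genes, SP1 and NRF1 at 4 and ZNF143 at 3. These counts use gene record starts, where the YY1 score at PLK1 was only 4.96 at 290 bp, low in its list. BIRC5, which encodes survivin, had the next ZNF143 score after BUB3, 13037 at chromosome 17, position 78214211, in its untranslated region 25 bp downstream of the 5′ end (the top 1.61%). INCENP scored 3846 at −237 bp (the top 6.77%), in an exon of a noncoding gene. AURKA, the spindle pole kinase, scored 192 at −130 bp with NRF1 at 6087 and YY1 at 6054. The passenger kinase AURKB had SP1 at 267, YY1 at 85.0, NRF1 at 5.42 and no ZNF143.

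The cyclin B and CDK1 genes, which drive mitotic entry, and CDC20, which activates the anaphase-promoting complex, had SP1, NRF1 and YY1 at 4 of 4. ZNF143 was at CDK1 (7.36, −84 bp) and CDC20 (3.76, 225 bp), both low in the list, and at neither cyclin gene. NRF1 scored 4161 at CCNB1, 2631 at CDK1, 87.5 at CDC20 and 52.5 at CCNB2. SP1 scores were more even, at 503, 459, 381 and 156 for CDC20, CDK1, CCNB1 and CCNB2.

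As a list, the 23 genes with ZNF143 had a median score of 23.7, beside 23.6 for all 6323 genes with a ZNF143 summit, and 12 of them lay above that value. The 6 highest scores ran from 3846 to 15679 and 11 scores lay between 3.76 and 12.96. The rest lay between these ranges, from 23.7 at PMF1 to 861 at CENPH. For SP1 the median was 462 beside 197 for all genes, with 26 of 34 above the latter. For NRF1 it was 116 beside 48.0 (20 of 36 above), and for YY1 216 beside 139 (23 of 35). The ZNF143 median of these genes was thus close to that of all genes. Single scores spread widely in both, with quartiles of 6.72 and 2354 here and 7.64 and 706 for all genes.

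NRF1 scores followed the NRF1 consensus. With the bases GCGCANGCG, searched on both strands and lying wholly within 50 bp of the summit, were 15 of 36 genes (41.7%, beside 21.8% of all 9643 genes with NRF1). Their NRF1 scores had a median of 5338 (52.5 to 12284), against 24.1 (4.44 to 3020) for the 21 without it. Over all genes with NRF1 the medians were 4276 and 24.7. The sites at the 8 highest of them are shown because they carry the strong NRF1 summits of this list, with matches in capitals in the direction of the gene.
SPC24 (chr19:11156018-11156047, minus strand): tttctctcccGCGCAGGCGcatcgggaagg
DSN1 (chr20:36773801-36773830, minus strand): actgacggccGCGCATGCGCccttggttgg
CENPI (chrX:101098147-101098176, plus strand): tctgcgcggaaGCGCATGCGtggggtggag
CENPU (chr4:184734136-184734165, minus strand): aggaagtcctGCGCACGCGcgcgtgctcgg
CENPN (chr16:81006904-81006933, plus strand): gggccccaagGCGCATGCGCcgcctgtcct
AURKA (chr20:56392339-56392368, minus strand): ggagcaagtgCGCCTGCGCgcggtgtgcgc
MAD2L1 (chr4:120066845-120066874, minus strand): aggctcgtcgCGCCTGCGCaaaggacctga
CENPO (chr2:24793131-24793160, plus strand): ggaccactttGCGCATGCGCcccagctctt

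YY1 showed the same relation on fewer genes. The bases AANATGGCG lay within 50 bp of the YY1 summit at 5 of 35 genes (14.3%, beside 6.56% of 11546 genes). Their scores had a median of 3335 (2159 to 6054), against 169 for the other 30 genes, among which CENPL reached 15923. Over all genes with YY1 the medians were 1872 and 125. CENPK, NDC80, AURKA and NSL1 each have a protein-coding gene on the opposite strand starting within 1000 bp. The YY1 summit was nearer that gene's 5′ end at CENPK, NDC80 and AURKA, 99, 195 and 181 bp downstream of it. At NSL1 it was nearer NSL1. The 5 sites follow, with the match on either strand in capitals.
AURKA (chr20:56392534-56392563, minus strand): ttgcttttctCGCCATCTTacttactggca
KNL1 (chr15:40593967-40593996, plus strand): gttatggaagcCGCCATTTTgtacggaagc
NDC80 (chr18:2571280-2571309, plus strand): tccatgggcgcCGCCATGTTgctgtacgga
CENPK (chr5:65563297-65563326, minus strand): cactttccgcCGCCATGTTgttcgcatcgt
NSL1 (chr1:212791747-212791776, minus strand): gttccgacgaAAAATGGCGgggtctcctga

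For ZNF143 the consensus was at the summits of BUB1B and BUB3 alone, 2 of 23 genes (8.70%, beside 4.73% of 6323 genes). The other 21 had a median of 12.96 and reached 13037 at BIRC5, and over all genes with ZNF143 the medians were 3298 with and 20.8 without the consensus. For SP1, with the GC box GGGCGG within 50 bp (12 of 34, 35.3%, beside 43.4% of 11807 genes) the median score was 393, and without it 462, whereas over all genes with SP1 the medians were 222 and 178. The ZNF143 and SP1 differences rest on few genes or small shifts and were not tested.

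**Figure D3:**
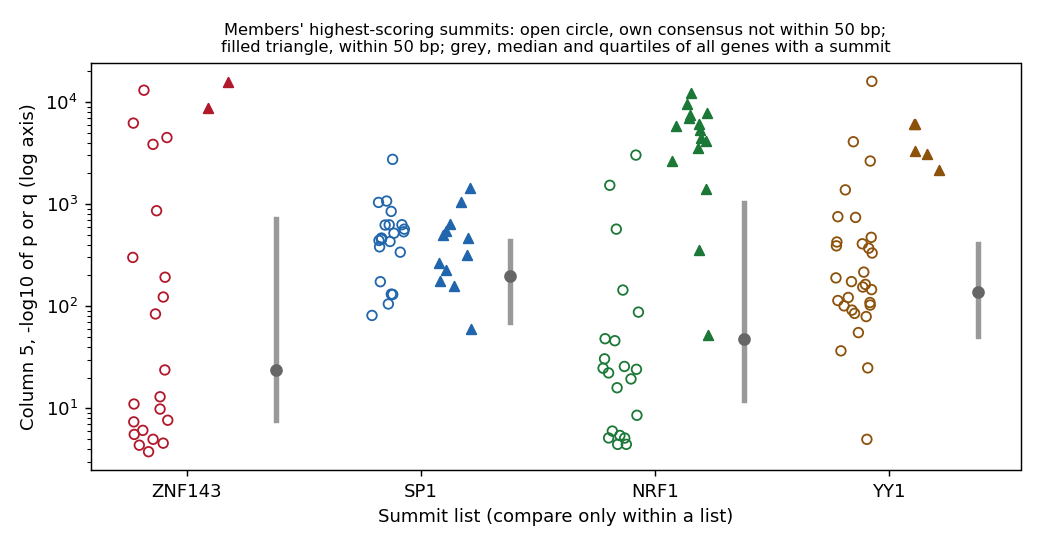
Score of each gene's highest summit (column 5, −log10 of p or q, log axis) in each list, as an open circle without and a filled triangle with the factor's own consensus within 50 bp; the grey bar and dot give the quartiles and median of all genes with a summit. The 15 NRF1 triangles have a median of 5338 and the 21 circles 24.1, and the SP1 triangles have 393 and the circles 462. In both lists the ranges of triangles and circles overlap.

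The summits lay near the 5′ end, with medians of −15 bp for ZNF143 (quartiles −135 and 62.5), −42.5 bp for SP1 (−83.5 and 64.5), −10 bp for NRF1 (−52.5 and 162.75) and 73 bp for YY1 (−81 and 129.5). For all genes the medians were −19, −38, −29 and 60 bp. YY1 thus lay downstream in the 40 genes, in 23 of 35, as in genes at large. With canonical starts the YY1 median moved to −6 bp, so that its downstream place depends on the start used. Of the 23 ZNF143 summits 11 fell in annotated untranslated sequence, 7 in intergenic sequence, 3 in coding sequence, 1 in an intron and 1 in a noncoding exon.

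**Figure D4:**
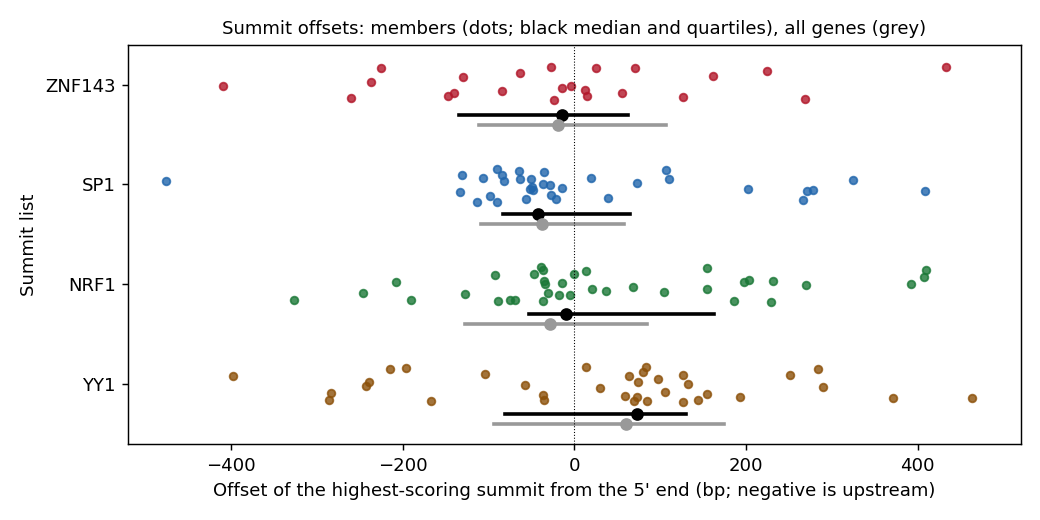
Offset in bp of each gene's highest-scoring summit from the 5′ end of its gene record (horizontal axis, negative is upstream), by list (vertical axis; dots are genes with vertical jitter). The black and grey bars with dots give the quartiles and median of the 40 genes and of all genes, 73 and 60 bp for YY1 and −42.5 and −38 bp for SP1.

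ZNF143 summits of these genes had YY1 close by. The nearest YY1 summit was within 100 bp at 19 of 23 genes (82.6%, beside 66.0% of all 6323), with a median distance of 44 bp. SP1 lay within 100 bp at 10 of 23 (43.5%, beside 67.5%) and NRF1 at 10 of 23 (43.5%, beside 46.8%), with medians of 108 and 144 bp. INCENP had YY1 3 bp away, SPC24 5 bp, BUB1B 6 bp and KNL1 12 bp. CDC20 (623 bp) and MAD1L1 (288 bp) were the furthest. Whether these shares differ from those of other genes was not tested.

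Shared promoters limit what can be assigned. Of the 40 genes 11 (27.5%, beside 13.4% of all genes) had the 5′ end of a protein-coding gene on the opposite strand within 1000 bp. ZNF143 was at 7 of these 11, among them CENPK with PPWD1, CENPO with PTRHD1, NDC80 with METTL4, MIS12 with DERL2, NSL1 with TATDN3 and AURKA with CSTF1. Among all genes in such pairs the ZNF143 share was 65.0%, and 26.5% among the rest, beside 16 of the 29 unpaired genes here. In 6 of the 7 the ZNF143 summit was nearer the partner's 5′ end, with MIS12 the exception. At CENPO it lay 14 bp upstream of PTRHD1 and 269 bp downstream of CENPO's gene record start. The canonical start of CENPO lies 289 bp beyond its gene record start, close to this ZNF143 summit. At NSL1 the ZNF143 summit lay 19 bp upstream of TATDN3 and 27 bp upstream of NSL1. SP1 was nearer the partner in 9 of 9 pairs, NRF1 in 5 of 10 and YY1 in 5 of 9. These counts use gene record starts. At MIS12 the SP1 summit was 267 bp downstream of that start and 259 bp from DERL2. The canonical start of MIS12 lies 281 bp further in, close to this summit. To which gene of a pair a summit belongs cannot be told from the lists. CENPN with ENSG00000286221, CENPP with NOL8, CENPQ with MMUT and CENPT with NUTF2 were the pairs without ZNF143.

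The promoters themselves were searched, from 250 bp before to 50 bp after the 5′ end and on both strands, where matches of different motifs may overlap. The CHR, written TTTGAA, was in 17 of 40 promoters (42.5%, beside 13.2% of all) and CCAAT in 24 (60.0%, beside 35.9%). Both were in 11 (27.5%, beside 5.59%). The NRF1 bases were in 11 (27.5%, beside 9.03%), the YY1 bases in 5 (12.5%, beside 3.51%) and an E2F site, written TTTGGCGC, TTTCCCGC or TTTCGCGC, in 4 (10.0%, beside 3.3%). The GC box (23 genes, 57.5%, beside 52.4%) and the ZNF143 consensus (1 gene, BUB1B, 2.50%, beside 2.54%) were about as frequent as in all promoters. At canonical starts the CHR was in 23 promoters (57.5%, beside 11.5%), CCAAT in 27 (67.5%, beside 36.0%) and both in 17 (42.5%, beside 4.92%). The YY1 bases were then in 3 (7.50%, beside 5%), the NRF1 bases in 11 (27.5%, beside 11%) and an E2F site in 5 (12.5%, beside 3.72%). A match is a run of letters and does not show that a protein is bound there.

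**Figure D5:**
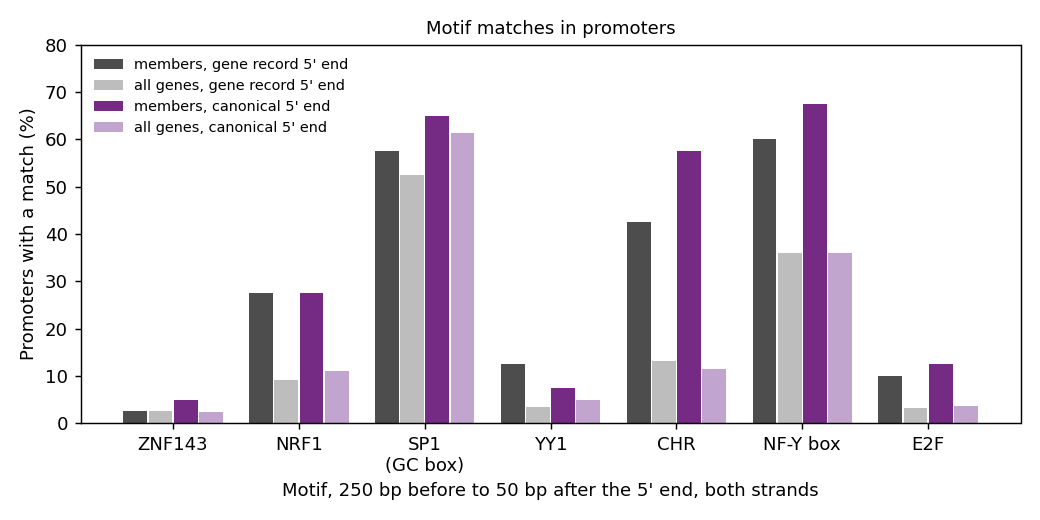
Share of promoters (percent, vertical axis) with each motif from 250 bp before to 50 bp after the 5′ end, for the 40 genes and all 19970 genes, by gene record and by canonical start. The bars for the CHR, 42.5% and 57.5% of the 40 genes beside 13.2% and 11.5% of all genes, and for the NF-Y box stand above those of all genes, while the GC box bars are of similar height.

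By role, the CHR was in the canonical promoters of 5 of 5 kinase and passenger genes, 3 of 4 cyclin, CDK1 and CDC20 genes, 4 of 6 checkpoint genes, 4 of 9 outer kinetochore genes, 1 of 2 corona genes and 6 of 14 inner kinetochore genes. These lists carry no factor that binds the CHR, so that its sites are given as sequence beside the measured summits. Of the 12 genes of the first 3 groups with the CHR, 11 follow with their site, each the match nearest the canonical 5′ end, with TTTGAA or its complement TTCAAA in capitals.
CCNB2 (chr15:59105104-59105133, plus strand): aagcgacgcggtaTTTGAAtcctggaacaa
CDK1 (chr10:60778474-60778503, plus strand): gctcgcacttggcTTCAAAgctggctcttg
CDC20 (chr1:43358903-43358932, plus strand): gcgacggttggatTTTGAAggagccaatag
PLK1 (chr16:23678847-23678876, plus strand): tcccagcgccgcgTTTGAAttcggggagga
AURKA (chr20:56392200-56392229, minus strand): aaagaagaaccTTTGAAttctaacggctga
AURKB (chr17:8210596-8210625, minus strand): ggggcgggagaTTTGAAaagtccttggcca
INCENP (chr11:62123988-62124017, plus strand): ctgagccttcagtTTTGAAaatcatagttt
BUB1B (chr15:40161033-40161062, plus strand): cgggaccgttaaaTTTGAAacttggcggct
BUB3 (chr10:123154325-123154354, plus strand): tgagacgttggcgTTTGAAatcagccaatg
MAD2L1 (chr4:120066806-120066835, minus strand): gcgtcgttactTTTGAAacgcttggcgggg
TTK (chr6:80004634-80004663, plus strand): agcgacggggaaaTTCAAAcgtgtttgcgg

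The first base of these 11 sites lay between 65 bp upstream (CDC20) and 24 bp downstream (MAD2L1) of the canonical 5′ end, and at −29 bp in both CCNB2 and PLK1. The canonical promoter of CDK1 held 3 matches, the one shown at 9 bp and TTTGAA at −13 and −69 bp. That of CDC20 held 2 matches. Within 50 bp of the SP1 summit the CHR was found at 6 of 34 genes (17.6%, beside 2.82% of 11807 genes) and CCAAT at 18 (52.9%, beside 22%). CENPC, BUB1B, AURKB, CDC20, CCNB2 and CDK1 were the 6. At the ZNF143 summits the CHR lay within 50 bp in 2 of 23 genes (8.70%, beside 2.58% of 6323 genes), CENPM and CENPF. The strong ZNF143 summits of BUB3, BIRC5 and INCENP were in promoters with a CHR, but it lay further than 50 bp from them.

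A further list of 79 mitotic genes, also matched in full, gave the setting. ZNF143 was at 56 (70.9%, beside 31.7% of all genes), SP1 at 70 (88.6%), NRF1 at 68 (86.1%) and YY1 at 72 (91.1%), and all 4 at 55 (69.6%). By role, ZNF143 was at 12 of 16 other kinetochore and centromere loading genes, 12 of 18 genes of the anaphase-promoting complex, 6 of 8 condensin genes, 9 of 15 kinesin and spindle genes, 5 of 6 passenger and cohesion genes and 12 of 16 entry and exit genes. The highest ZNF143 scores were at ZW10 (14718, −79 bp), which anchors dynein at kinetochores, KIF20A (11098, 4 bp), a kinesin of cytokinesis, and CDC25A (8623, −276 bp), the phosphatase that activates cyclin-dependent kinases. Of the 79 promoters 28 held the CHR (35.4%, beside 13.2% of all). By gene record starts and the 500 bp limit, the ZNF143 share of the 40 genes was thus below that of these mitotic genes. Within 250 bp ZNF143 was at 19 of 40 and 42 of 79, and within 1000 bp at 26 of 40 and 63 of 79. By canonical start ZNF143 was at 27 of the 40, and the 79 were not counted from those starts. The difference was not tested.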

How the data were processed

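ChIP-seq summit lists of HEK293T clone ZD29, 1 per antibody, were used. The deposited column 5 is, judged by its values and layout, on a −log10 scale as MACS-type callers write it, of a p-value or else a q-value, which the sources do not state. The submitters' processing notes name hg38, cutadapt, Bowtie2, SAMtools 1.16.1, MACS3 and bedtools without order. Filters, cutoffs and which samples were pooled are not given in the sources used here. The NRF1 and YY1 lists were matched to their antibody by file name. No column of per-sample values was in the lists.

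Summits were compared with GENCODE 44 gene records on hg38 in Python 3.11.15 with pandas 2.3.3. For each gene and list the highest-scoring summit within 500 bp gave score, offset and rank. The window and motif searches were tested on simulated data. Motifs were exact. The ZNF143 consensus has ambiguous letters and is named only. Alternatives were windows of 250 and 1000 bp, canonical transcript starts, the top 50% of each list, equal list lengths of 16165, the nearest summit, and promoters of 500 bp either side. The members and lists were chosen with earlier results of these data known. Scores were given for the genes with the 6 highest ZNF143 scores, the highest of each other list, and genes with few lists. The ACTACAA and short core searches and the share of ZNF143 among genes with the other 3 factors were added after seeing the data. No samples were compared, and the mock samples' tracks were not analysed here. A partner gene and a CHR site are not reported here.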

Additional observations from a re-analysis of the deposited data

How the results depend on the processing

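With windows of 250 or 1000 bp, canonical starts, the top 50% of each list or equal list lengths, the counts of genes with each factor stayed within 1.5 times of those reported, apart from these. In the top 50% of each list, ZNF143 was at 12 genes (19.3% of all genes), all 4 lists at 10 (16.2%) and SP1, NRF1 and YY1 without ZNF143 at 17 (23.3%). With 16165 summits in each list the last count was 2 (4.15%). By canonical start the ZNF143 consensus was in 2 promoters (2.44% of all) and the YY1 bases in 3 (5% of all). In promoters of 500 bp either side the ZNF143 consensus was in 3 genes (6.66% of all), the YY1 bases in 8 (7.54%), the CHR in 28 (36.4%) and an E2F site in 8 (7.92%), where a longer window holds more matches by construction. Median offsets moved by less than their SD over genes. No paired analysis was possible because the lists hold no value per sample and no test was made, and leaving out replicates could not be run for the same reason. Depth is unknown, and a missing summit does not show that a factor was absent.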
